A study of Mus musculus with 8 samples.

Results

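The comparison described here sets livers of mice given carbon tetrachloride (CCl4) with erlotinib at 5 mg against livers of mice given CCl4 with erlotinib at 2 mg. Its members are the 4 erlotinib arrays of a series of 8, chosen by the treatment in the labels, and every probe with a gene symbol was read across them. The groups were CCl4 with erlotinib 5 mg (2 arrays), CCl4 with erlotinib 2 mg (2 arrays), CCl4 alone (2 arrays) and vehicle (2 arrays). All mice were males of the inbred strain A/J, and each array, an Illumina mouse BeadArray, held RNA from liver tissue outside tumours. A 40% CCl4 solution in olive oil (0.1 cc) or vehicle went in by oral gavage 3 times per week for 18 weeks, so both erlotinib groups also carry chronic CCl4. The protocol takes the livers at 19 weeks after a washout, while the sample source reads week 18. The sources used here do not say what the erlotinib weights are relative to or how often the drug was given. No array holds erlotinib without CCl4.

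Erlotinib is a small-molecule inhibitor of the EGF receptor kinase, which in hepatocytes feeds the RAS and MAP kinase cascade and, through it, immediate early genes and the G1 cyclin gene Ccnd1. CCl4 is turned into a radical in hepatocytes, mainly by Cyp2e1, and repeated doses injure hepatocytes and activate the stellate cells that lay down scar. PPAR-alpha, a nuclear receptor that fatty acids activate in fasting, drives the genes of fatty acid oxidation, among them acyl-CoA thioesterases (Acot) and fatty acid hydroxylases of the Cyp4a family.

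Raw array medians were 114 and 128 at 5 mg and 106 and 130 at 2 mg. The share of probes above background, set per array by probes for odorant and related receptors, was 25.2% and 24.6% at 5 mg and 23% and 26.1% at 2 mg. In all, 11022 genes were tested, and 5125 of them were not above background on any of the 4 erlotinib arrays. Of the tested hepatocyte markers 27 of 27 were above background on at least 1 erlotinib array, although the single Alb probe was dim. Levels below are log2 intensities after background correction and quantile normalization, and a difference is the mean of the 5 mg arrays minus the mean of the 2 mg arrays, given with its standard error (SE). Adjusted p-values come from limma with Benjamini-Hochberg adjustment over the tested genes, and a gene is called at 0.05. The labels do not say whether both arrays of a treatment are from different mice, so a p-value measures the spread between these arrays, and their number limits the precision. The sources used here name no slides or dates, so such batches and the dose cannot be told apart. In whole liver, fewer cells of a type and less RNA per cell cannot be told apart either.

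The 2 doses gave livers that differed about as much from each other as arrays of 1 dose did. Across genes, the difference between a 5 mg array and a 2 mg array had an SD of 0.187 to 0.222. The SD was 0.196 between the 5 mg arrays and 0.211 between the 2 mg arrays. Against CCl4 alone, single arrays differed with an SD of 0.297 to 0.366 at 5 mg and 0.299 to 0.368 at 2 mg. Every pair of erlotinib and CCl4 arrays differed more than any pair of 5 mg and 2 mg arrays.

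**Figure D1:**
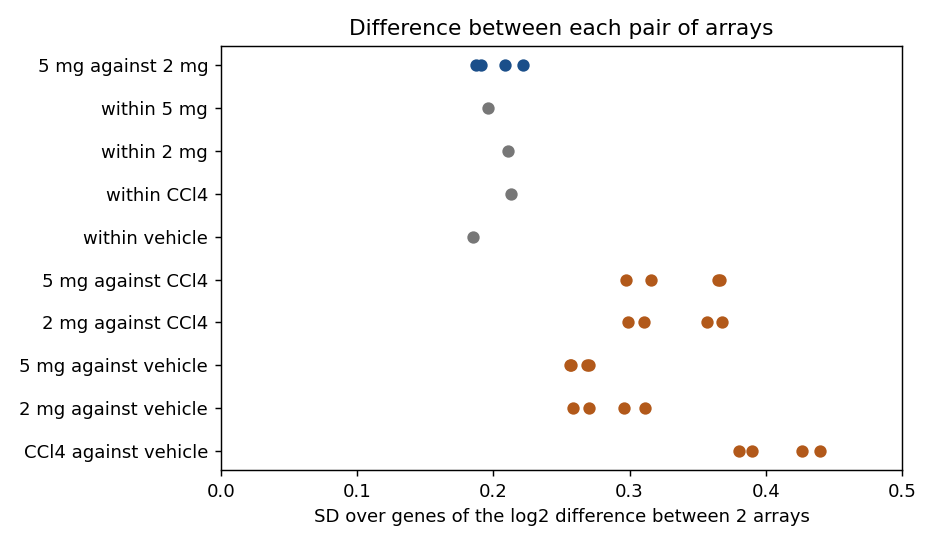
Each point is 1 pair of arrays; the x axis is the SD over 11022 genes of the log2 difference between them, and rows group the pairs by treatment. The pairs of 5 mg against 2 mg (0.187 to 0.222) overlap the pairs within 1 group (0.185 to 0.213) and lie left of all pairs of erlotinib against CCl4.

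Only Acot1 and Cyp4a31 passed the test between doses, and both were higher at 5 mg. That is 2 of 11022 genes higher (0.0181%) and 0 lower (0%). At an unadjusted p under 0.05 there were 505 of 11022 genes, and 5 genes had an adjusted p under 0.1. The 505 are a smaller share than the 0.05 that such a cutoff passes when no gene differs. Of 546 tested odorant and related receptor genes, 21 had an unadjusted p under 0.05. The mean differences had an SD of 0.142. Past 1.5-fold lay 40 genes, 29 of them higher at 5 mg and 11 lower. For 25 of the 29 and 8 of the 11 the arrays of the doses did not overlap. These counts depended on single arrays: without 2 mg replicate 2 there were 61 higher and 36 lower, and without 5 mg replicate 1 there were 51 higher and 28 lower. The count lower was 24 without 2 mg replicate 1 and 20 without 5 mg replicate 2. Past 2-fold lay 1 gene in each direction, Cyp2b13 higher and Cyp7a1 lower at 5 mg, and neither was called. Both 5 mg arrays stood above both 2 mg arrays for 1790 genes (16.2%) and below them for 1840 (16.7%), which is the background for every list below. Against CCl4 alone, 999 genes were called at 5 mg (9.06%) and 952 at 2 mg (8.64%); these counts share the CCl4 arrays.

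**Figure D2:**
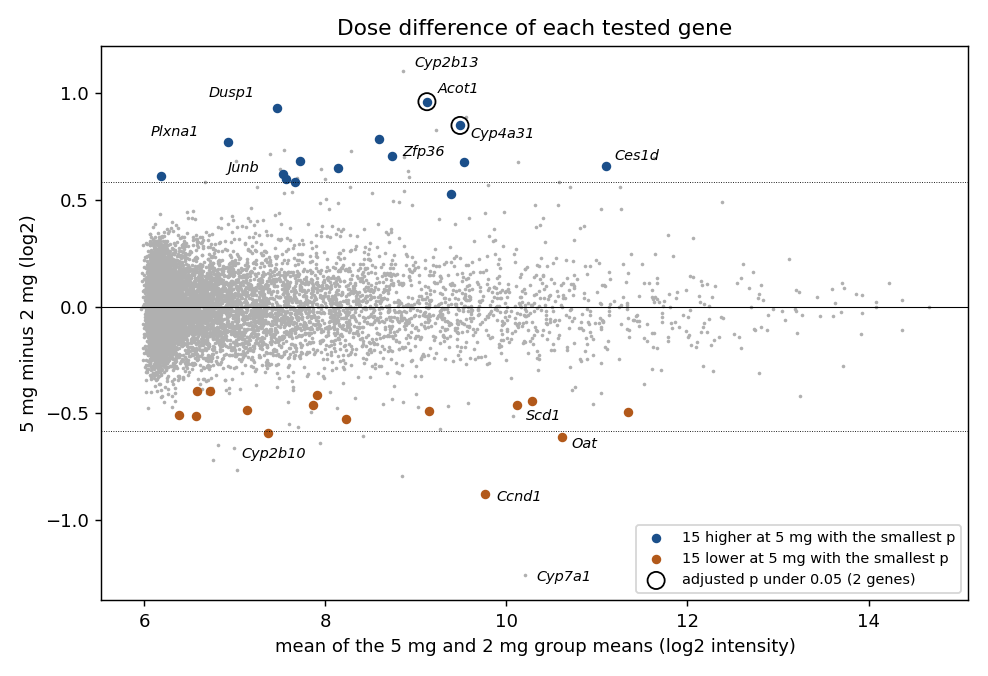
Each point is 1 tested gene: its mean log2 intensity over the 2 doses (x) and its 5 mg minus 2 mg difference in log2 (y). Coloured are, in each direction, the 15 genes with the smallest p among those above background on both arrays of a dose. Dotted lines mark 1.5-fold, and the 2 circled genes, Acot1 (0.96) and Cyp4a31 (0.85), passed the adjusted threshold.

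Genes of fatty acid oxidation and PPAR-alpha targets held both called genes and leaned towards the higher dose. Acot1, a cytosolic thioesterase that frees fatty acids from coenzyme A, stood at 9.70 and 9.51 at 5 mg, against 8.50 and 8.79 at 2 mg. Both 5 mg arrays were well above both 2 mg arrays, and also above CCl4 alone (8.04 and 7.68) and vehicle (8.71 and 8.95). Acot1 rose by 0.96 ± 0.15, or 1.95-fold (adjusted p 0.0439). A second, dimmer Acot1 probe read 7.50 and 7.31 at 5 mg, against 7.12 and 7.03 at 2 mg, a difference of 0.33 that did not pass (p 0.0179, adjusted over probes 0.994).

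Cyp4a31, a member of the omega-hydroxylase family, stood at 10.07 and 9.76 at 5 mg, against 9.11 and 9.02 at 2 mg. The 2 mg arrays sat at the vehicle level (9.04 and 8.95) and the 5 mg arrays above every other array. Cyp4a31 rose by 0.85 ± 0.13, or 1.80-fold (adjusted p 0.0439). Against CCl4 alone (8.66 and 8.43), it was 1.37 higher at 5 mg (adjusted p 4.81e-06) and 0.52 higher at 2 mg (adjusted p 0.0181). For Acot1 the same differences were 1.74 (adjusted p 1.56e-06) and 0.78 (adjusted p 0.00215). Acot1 lies beside Acot2 and Cyp4a31 beside Cyp4a10 and Cyp4a32, close relatives whose transcripts could reach the same probe.

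Both calls were marginal. With the authors' processed values both had an adjusted p of 0.319. Without vehicle replicate 1 or vehicle replicate 2 it was 0.128 for both genes. Without 2 mg replicate 1 the adjusted p was 0.348 for Acot1 and 0.216 for Cyp4a31, and without 5 mg replicate 1 it was 0.203 for Acot1 and 0.227 for Cyp4a31. The call on Acot1 also ended without 5 mg replicate 2 (0.111), and that on Cyp4a31 without 2 mg replicate 2 (0.147). Under every one of these settings both genes remained higher at 5 mg.

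Of the 36 tested genes of this list 2 were called higher and 0 lower, and 30 had a difference above 0 and 6 below. The arrays did not overlap for 15 (41.7%), all higher at 5 mg, and the median difference was 0.10, against -0.00 over all tested genes. Acot3, a peroxisomal thioesterase, read 7.78 and 8.13 at 5 mg, against 7.33 and 7.41 at 2 mg. The arrays of the doses did not overlap and all 4 stood above CCl4 alone and vehicle, but the difference missed the threshold (0.58 ± 0.13, adjusted p 0.286). Slc22a5, the carnitine transporter that supplies the mitochondrial import of fatty acids, read 7.83 and 7.98 at 5 mg, against 6.74 and 7.61 at 2 mg. Its 2 mg arrays lay far apart, and the difference was 0.73 ± 0.20 (adjusted p 0.653). It was 0.29 without 2 mg replicate 1 and 1.17 without 2 mg replicate 2 (adjusted p 0.0203). Angptl4, a secreted inhibitor of lipoprotein lipase, read 9.96 and 10.20 at 5 mg, against 9.11 and 9.91 at 2 mg (0.57 ± 0.20, adjusted p 0.996). Its difference was 0.17 without 2 mg replicate 1 and 0.97 without 2 mg replicate 2. Cyp4a14 differed by 0.47 ± 0.35 (adjusted p 0.996), with 0.71 without 2 mg replicate 1 and 0.24 without 2 mg replicate 2.

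Other genes of the pathway differed less between the doses. Acaa1b, a peroxisomal thiolase, differed by -0.02 between doses (0.12 with median scaling), while it was 1.41 higher at 5 mg and 1.43 higher at 2 mg than with CCl4 alone. Slc25a20, the carnitine carrier of the inner mitochondrial membrane, differed by 0.22 (p 0.113), with 0.88 at 5 mg and 0.65 at 2 mg against CCl4 alone. Acot2, the mitochondrial neighbour of Acot1, was above background on 1 of the 4 erlotinib arrays and differed by 0.03. Plin2 and Plin5, coat proteins of lipid droplets, belong to the list of fatty acid and triglyceride synthesis instead. Plin2 leaned towards 5 mg without a call. It stood at 7.99 and 7.81 at 5 mg, against 7.47 and 7.25 at 2 mg (0.54 ± 0.13, adjusted p 0.369), and these arrays did not overlap. The probes of Plin5, the coat that tethers droplets to mitochondria, disagreed. The brighter gave 0.39 ± 0.14 (adjusted p 0.996), and the dimmer gave -0.16 with overlapping arrays.

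**Figure D3:**
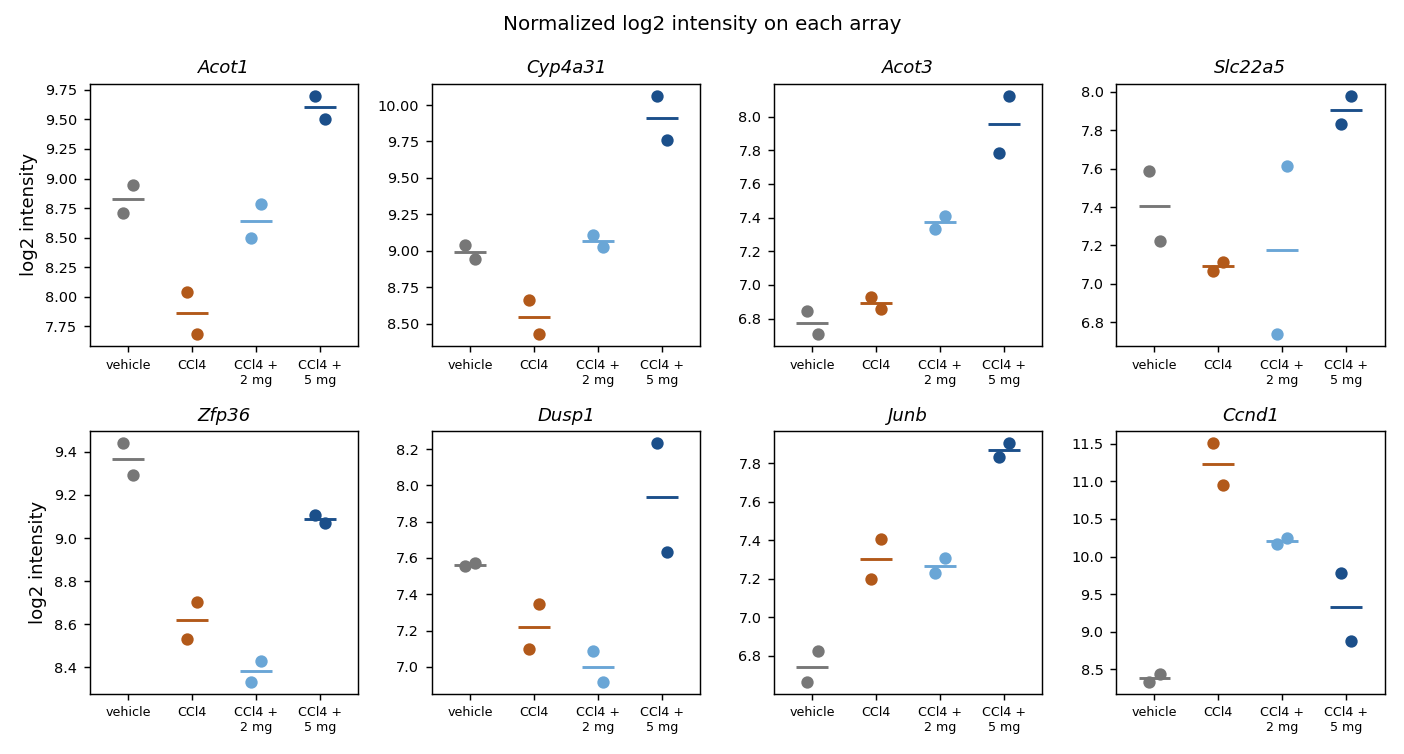
Log2 intensity on each array (y) for 8 genes, with vehicle, CCl4 alone, CCl4 with 2 mg and CCl4 with 5 mg from left to right; points are arrays and bars are means of 2. Of these genes Acot1 and Cyp4a31 passed the test between doses; in the other 6 the 5 mg and 2 mg points do not overlap but the difference was not called.

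Immediate early genes formed the next group among the smallest p-values, and none was called. Zfp36, which encodes tristetraprolin, a protein that marks short-lived cytokine messages for decay, read 9.11 and 9.07 at 5 mg, against 8.33 and 8.43 at 2 mg. The 4 values did not overlap. The difference was 0.71 ± 0.12 (adjusted p 0.0655), and the levels were 8.53 and 8.70 with CCl4 alone and 9.44 and 9.29 with vehicle.

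Dusp1, a phosphatase that switches MAP kinases off, read 8.23 and 7.64 at 5 mg, against 7.09 and 6.92 at 2 mg. The 5 mg arrays differed from each other by more than the 2 mg arrays did, yet both lay above them. The difference was 0.93 ± 0.16 (adjusted p 0.0655), with 0.63 without 5 mg replicate 1 (adjusted p 0.373) and 1.23 without 5 mg replicate 2 (adjusted p 0.0140). Junb, an AP-1 transcription factor subunit, read 7.83 and 7.90 at 5 mg, against 7.23 and 7.31 at 2 mg, a difference of 0.60 ± 0.12 (adjusted p 0.150). Against CCl4 alone, Dusp1 differed by 0.71 at 5 mg (adjusted p 0.00849) and by -0.22 at 2 mg (adjusted p 0.575). For Junb these differences were 0.57 at 5 mg (adjusted p 0.0054) and -0.03 at 2 mg (adjusted p 0.947).

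Among 21 tested immediate early and MAP kinase feedback genes 0 were called, 6 were non-overlapping with 5 mg higher (28.6%) and 0 with 5 mg lower, and the median difference was 0.04. Smaller differences than those of Zfp36, Dusp1 and Junb were seen for Egr1, another immediate early gene, and for 2 feedback genes. They were 0.18 ± 0.12 for Egr1, 0.19 ± 0.28 for Dusp6, the phosphatase of ERK, and 0.34 ± 0.18 for Errfi1, a feedback inhibitor of the EGF receptor (adjusted p 0.996 each). Their 95% intervals were -0.09 to 0.44 for Egr1, -0.40 to 0.77 for Dusp6 and -0.04 to 0.72 for Errfi1. The Errfi1 difference was 0.02 without 2 mg replicate 1 and 0.66 without 2 mg replicate 2. Fos and Myc were above background on 0 arrays, and Spry4 was too dim to be tested.

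The promoters of Zfp36, Dusp1 and Junb are shown because these genes stood together, with that of Acot1 as the called gene the sequence table holds. Each is the 250 bases before the start site on the gene's strand, from RefSeq on GRCm38.p6. Capitals mark TGACG, the half-site of the cyclic AMP response element, on either strand in the first 3, and would mark AGGTCA, the half-site bound by nuclear receptors, in Acot1, which has none. Zfp36 (chr7:28379229-28379478, minus strand) has no TGACG in this window. Dusp1 (chr17:26508473-26508722, minus strand) has it at -191, and again at -143 and -140, where the matches on both strands overlap in the full element TGACGTCA. Junb (chr8:84978749-84978998, minus strand) has it at -106. The Acot1 window is chr12:84009252-84009501, plus strand.
Zfp36: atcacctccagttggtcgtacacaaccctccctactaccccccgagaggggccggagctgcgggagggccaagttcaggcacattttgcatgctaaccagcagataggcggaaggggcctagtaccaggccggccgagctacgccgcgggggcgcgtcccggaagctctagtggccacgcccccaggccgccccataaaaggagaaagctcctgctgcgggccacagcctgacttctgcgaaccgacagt
Dusp1: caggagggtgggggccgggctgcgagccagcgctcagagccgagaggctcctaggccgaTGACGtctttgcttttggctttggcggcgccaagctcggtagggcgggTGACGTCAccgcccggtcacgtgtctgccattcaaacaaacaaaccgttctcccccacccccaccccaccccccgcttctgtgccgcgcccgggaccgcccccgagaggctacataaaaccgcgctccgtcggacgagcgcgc
Junb: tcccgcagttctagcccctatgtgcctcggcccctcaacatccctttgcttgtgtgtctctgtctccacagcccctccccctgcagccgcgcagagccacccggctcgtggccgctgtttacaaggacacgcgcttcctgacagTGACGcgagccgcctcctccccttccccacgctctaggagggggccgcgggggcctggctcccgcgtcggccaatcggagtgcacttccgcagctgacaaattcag
Acot1: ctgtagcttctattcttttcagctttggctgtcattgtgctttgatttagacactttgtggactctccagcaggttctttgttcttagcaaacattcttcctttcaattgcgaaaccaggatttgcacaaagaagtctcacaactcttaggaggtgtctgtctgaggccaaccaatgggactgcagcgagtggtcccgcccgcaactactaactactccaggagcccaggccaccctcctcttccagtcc
A gene can have more than 1 promoter here, and each is counted. TGACG occurred in 9 of 19 promoters of the immediate early list (47.4%), which belong to 15 genes. It occurred in 22.8% of 11244 promoters of tested genes and in 17.8% of all 32851 promoters. The full element occurred in 1 of the 19 (5.26%), in 2.21% of promoters of tested genes and in 1.55% of all promoters. AGGTCA occurred in 6 of 31 promoters of the fatty acid oxidation list (19.4%), which belong to 28 genes. It occurred in 12.1% of promoters of tested genes and in 14.0% of all promoters. The direct repeat of AGGTCA spaced by 1 base, the arrangement PPAR-alpha binds, occurred in 0 of the 31 and in 0.0335% of all promoters. A match is a run of letters and was not tested as a site.

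Complement, coagulation and acute phase genes held no call. Of 41 tested complement and coagulation genes 0 were called, 34 had a difference above 0, and the arrays did not overlap with 5 mg higher for 16 (39.0%) and with 5 mg lower for 1 (2.44%, Masp2, whose difference of -0.10 was 0.13 with its probes averaged). Their median difference was 0.15, the highest of the lists with 15 or more tested genes. Of 32 metallothionein and acute phase genes 0 were called and 10 were non-overlapping, all with 5 mg higher (31.2%; median 0.12). The widest difference of that list was in the other direction. Hamp, the iron hormone hepcidin, read 9.23 and 7.68 at 5 mg, against 9.32 and 9.18 at 2 mg (-0.79 ± 0.38, adjusted p 0.996). The low value was that of 5 mg replicate 2, without which the difference was -0.02, and without 5 mg replicate 1 it was -1.57. The summed level of the 27 hepatocyte markers, a list that holds Fga, Fgb, Fgg, F2 and Hp, was 175470 and 176564 in linear normalized units at 5 mg, against 170061 and 170366 at 2 mg. Its part in these values was not tested.

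The fibrinogen chains were among these genes. Fgg, the gamma chain, read 10.52 and 10.58 at 5 mg, against 10.18 and 9.97 at 2 mg, which did not overlap (0.48 ± 0.12, adjusted p 0.542). CCl4 alone stood higher than both doses (10.91 and 11.04). The Fgb probe, for the beta chain, was above background at 5 mg (6.44 and 6.55) and not at 2 mg (5.79 and 5.97). It was above background on 3 of all 8 arrays. As a bound on the means, 5 mg was at least 1.06-fold higher (means 6.49 and 5.88), and the difference was not called (adjusted p 0.150). That bound sets the 5 mg mean against the lowest signal above background, or the probe's own where higher, on the 2 mg arrays. It leaves out the spread between arrays. Fga, the alpha chain, differed by 0.11 (p 0.379). Fgl1, a fibrinogen-like protein secreted by hepatocytes, read 9.0 and 9.47 at 5 mg, against 8.79 and 8.42 at 2 mg (0.64 ± 0.18, adjusted p 0.654, and 0.40 without 5 mg replicate 2). Against CCl4 alone, Fgl1 differed by -1.07 at 5 mg (adjusted p 0.000846) and by -1.71 at 2 mg (adjusted p 1.87e-05). Agt, the precursor of angiotensin, read 8.35 and 8.58 at 5 mg, against 7.83 and 7.80 at 2 mg (0.65 ± 0.12, adjusted p 0.126). The 2 mg arrays of Agt lay at the level of CCl4 alone (7.81 and 7.84) and the 5 mg arrays above it.

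Of the genes lower at 5 mg, Ccnd1 had the widest difference among the 15 with the smallest p. Ccnd1, which encodes cyclin D1, the regulatory subunit that drives entry into the cell cycle, read 9.78 and 8.87 at 5 mg, against 10.17 and 10.25 at 2 mg. All 4 lay below CCl4 alone (11.51 and 10.95) and above vehicle (8.33 and 8.43), and the second 5 mg array was the lowest of the 4. The difference was -0.88 ± 0.22 (p 0.00103, adjusted p 0.516), a 95% interval of -1.35 to -0.41. It was -1.34 without 5 mg replicate 1 (adjusted p 0.0301) and -0.43 without 5 mg replicate 2 (adjusted p 0.9999). Other Ccnd1 probes gave -0.81 and -0.74. Among 31 tested cell cycle and replication genes 0 were called and the median difference was -0.01.

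Some of the other genes at this end were markers of scar and of injury. Acta2, an actin that stellate cells make once activated, read 6.60 and 6.71 at 5 mg, against 7.70 and 6.93 at 2 mg, with 8.39 and 9.52 for CCl4 alone. The groups did not overlap, the 2 mg arrays lay far apart, and 2 dimmer probes gave 0.08 and -0.13 (brightest probe -0.66 ± 0.27, adjusted p 0.996). That probe gave -0.28 without 2 mg replicate 1 and -1.04 without 2 mg replicate 2. Ccn2, the connective tissue growth factor, differed by -0.64 ± 0.21 (adjusted p 0.914), Col4a1, a basement membrane collagen, by -0.40 ± 0.12 (adjusted p 0.813) and Dcn, a matrix proteoglycan, by -0.47 ± 0.15 (adjusted p 0.817). A second Dcn probe, dim, gave 0.01, and the first gave -0.28 without 2 mg replicate 2. Col1a1, the main fibrillar collagen, differed by -0.11 ± 0.13 and Timp1, an inhibitor of matrix proteases, by -0.11 ± 0.14. Members of the same lists also went the other way. Thy1, on the stellate list, was above background at 5 mg and not at 2 mg. By the bound used for Fgb its mean was at least 1.05-fold higher at 5 mg, without a call (adjusted p 0.996). Col18a1, on the matrix list, differed by 0.19 ± 0.13 with non-overlapping arrays (adjusted p 0.996).

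Of 21 tested stellate cell and myofibroblast markers 0 were called, 8 had a difference above 0 and 13 below. They were non-overlapping with 5 mg higher for 2 (9.52%) and with 5 mg lower for 6 (28.6%), with a median of -0.08. Of 35 collagen and matrix genes 0 were called, with 5 and 7 on those sides and a median of -0.06. Their difference was above 0 for 10 and below 0 for 25. The summed level of the stellate markers was 3299 and 3487 at 5 mg, against 3745 and 3782 at 2 mg. Tumour-associated and oncofetal genes had the lowest median of the lists, -0.18 over 21 tested genes. None was called, 2 were non-overlapping with 5 mg higher and 7 with 5 mg lower (33.3%). Among them the brighter probe of Golm1, a Golgi protein of injured hepatocytes, differed by -0.39 ± 0.12 and its dimmer probe by 0.02. S100a11, a calcium-binding protein, read 8.19 and 7.61 at 5 mg, against 8.65 and 8.09 at 2 mg, which overlapped (-0.47 ± 0.20). Leaving out 1 erlotinib array put S100a11 between -0.76 (without 5 mg replicate 1) and -0.19 (without 5 mg replicate 2), with -0.75 without 2 mg replicate 2 and -0.20 without 2 mg replicate 1. Lcn2, a siderophore-binding protein of injured epithelium, differed by -0.16 ± 0.25, and by 0.33 without 2 mg replicate 1.

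Macrophage genes were not called either. Lyz1, a lysozyme of myeloid and Paneth cells, read 10.08 and 10.04 at 5 mg, against 10.65 and 10.35 at 2 mg, with CCl4 alone at 10.70 and 10.65 (-0.44 ± 0.12, adjusted p 0.653, and -0.29 without 2 mg replicate 1). The 5 mg value was below CCl4 alone by the test (-0.62, adjusted p 0.00333). Over 20 tested Kupffer cell and macrophage markers 0 were called, 1 was non-overlapping with 5 mg higher and 3 with 5 mg lower (median -0.02). Their summed level was 5384 and 5488 at 5 mg, against 6425 and 5548 at 2 mg, and 16 of the 20 were above background on at least 1 erlotinib array. Neutrophil markers summed to 1472 and 1588 at 5 mg, against 2048 and 1306 at 2 mg, which overlapped, and 3 of 9 were above background on at least 1 erlotinib array. Of the markers of T and NK cells 4 of 16 and of B cells 1 of 6 were above background on at least 1 erlotinib array. The part of these cells in the values above was not tested.

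**Figure D4:**
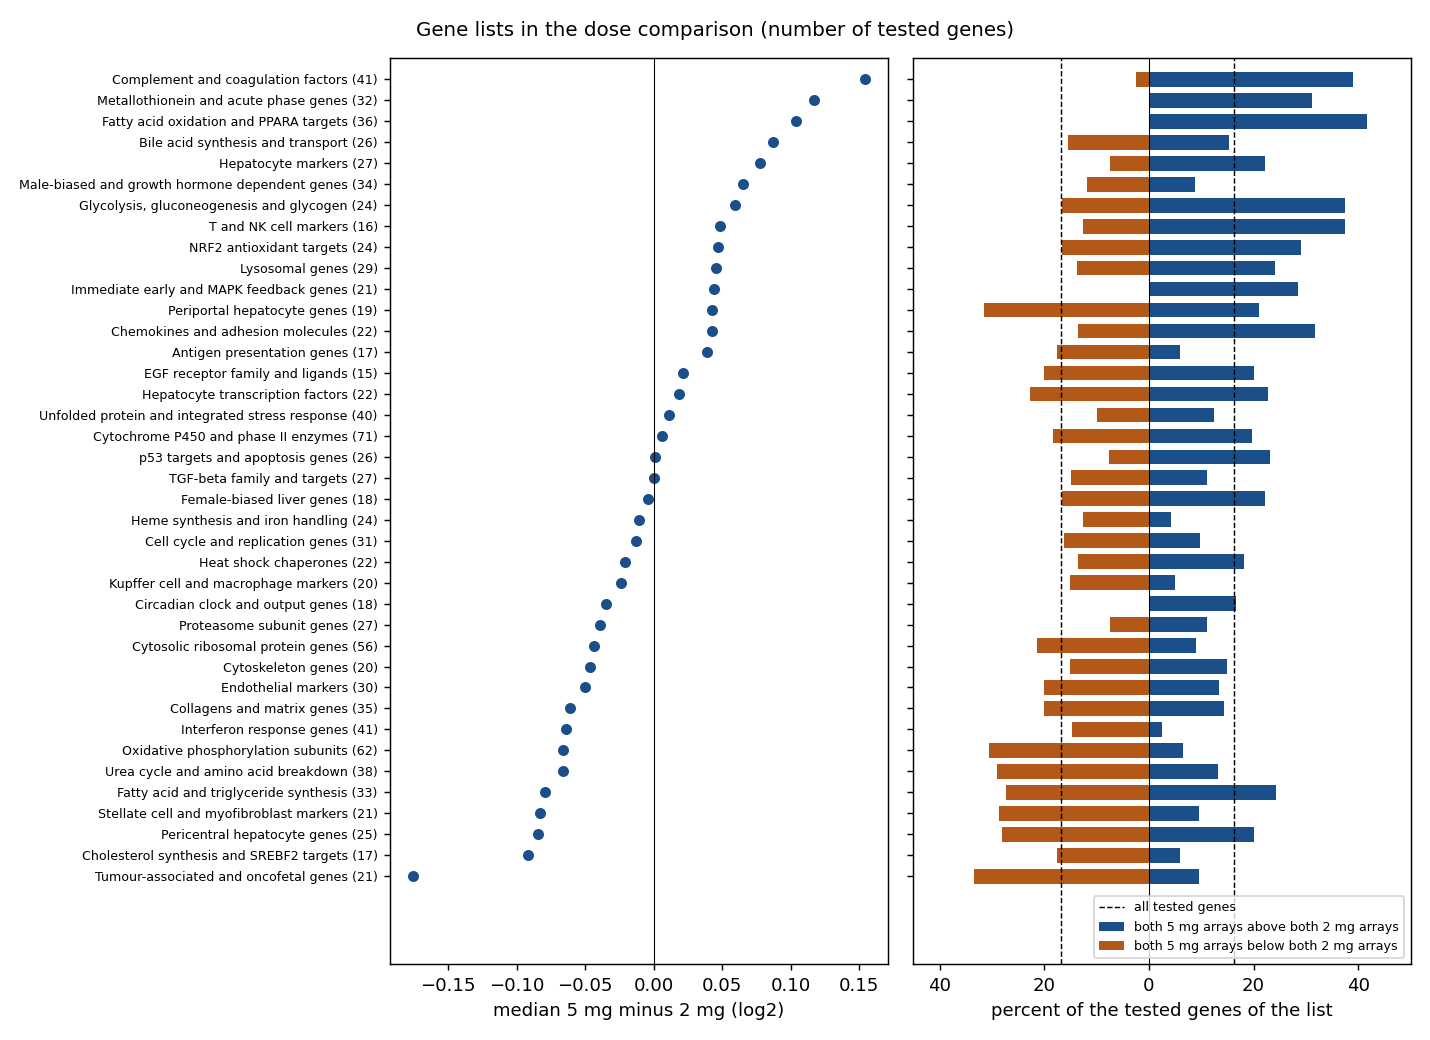
Left, the median 5 mg minus 2 mg difference (log2) over the tested genes of each list with 15 or more (number in brackets); right, the percent of each list with both 5 mg arrays above (blue) or below (orange) both 2 mg arrays, dashed lines giving all tested genes (16.2% and 16.7%). Complement and coagulation genes (0.15) are at the top and tumour-associated genes (-0.18) at the bottom; every list median is within 0.2 of 0.

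Enzymes of bile acid and drug metabolism held the widest differences, in both directions. Cyp7a1, the rate-limiting enzyme of bile acid synthesis, read 9.83 and 9.32 at 5 mg, against 10.97 and 10.70 at 2 mg. The doses did not overlap, but CCl4 alone (9.30 and 7.56) and vehicle (9.66 and 7.90) showed how far arrays of 1 group can lie apart for this gene. The difference was -1.26 ± 0.47, an interval of -2.25 to -0.27 (adjusted p 0.996). Cyp8b1, the sterol hydroxylase that makes cholic acid, read 10.45 and 10.50 at 5 mg, against 10.17 and 9.42 at 2 mg (0.68, p 0.121). Its difference was 1.05 without 2 mg replicate 1 and 0.31 without 2 mg replicate 2. Abcc3, the exporter of bile acid conjugates into blood, read 9.75 and 9.56 at 5 mg, against 9.07 and 9.18 at 2 mg (0.53 ± 0.12, adjusted p 0.341). It was higher than CCl4 alone at both doses, by 1.11 at 5 mg and 0.58 at 2 mg (adjusted p 1.81e-05 and 0.00459). Over 26 tested genes of bile acid synthesis and transport 0 were called, and 4 (15.4%) were non-overlapping in each direction.

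Cyp2b13, a cytochrome P450 with higher levels in female mouse liver, read 8.99 and 9.83 at 5 mg, against 7.78 and 8.83 at 2 mg. The lower 5 mg array was just above the higher 2 mg array, and the difference was 1.10 ± 0.31 (adjusted p 0.653). It was 0.58 without 2 mg replicate 1 and 0.68 without 5 mg replicate 2. Cyp2b10, the xenobiotic-induced member of the same family, differed in the opposite direction, with 7.31 and 6.85 at 5 mg, against 7.69 and 7.65 at 2 mg (-0.59 ± 0.15, adjusted p 0.542, and -0.36 without 5 mg replicate 2). Its other probe was above background on 0 arrays. Cyp2b genes are close in sequence, so the probes may share transcripts. Ces1d, a carboxylesterase that hydrolyses triglyceride, read 11.46 and 11.39 at 5 mg, against 10.79 and 10.74 at 2 mg. Its arrays were tightly grouped (0.66 ± 0.14, adjusted p 0.173) and both doses stood above CCl4 alone (9.92 and 9.79).

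The enzymes tied to CCl4 and erlotinib themselves did not show such gaps. Cyp2e1, which activates CCl4, read 12.27 and 12.20 at 5 mg, against 12.09 and 12.39 at 2 mg, a difference of 0.00 ± 0.22 with an interval of -0.47 to 0.47. Cyp1a2 differed by 0.07 ± 0.16 (-0.03 with its probes averaged) and Cyp3a11, of the subfamily that clears erlotinib in humans, by -0.11 ± 0.13, and the arrays of the doses overlapped for all 3. Of 71 tested cytochrome P450 and phase II genes 0 were called, 14 were non-overlapping with 5 mg higher and 13 with 5 mg lower, and the median was 0.01. Gstm2, a glutathione transferase, differed by -0.49 ± 0.14, with -0.47 and -0.18 for its other probes. Fmo5, a flavin monooxygenase, differed by -0.45, and by -0.24 without 2 mg replicate 1.

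Lipid synthesis genes went both ways, more of them lower at 5 mg. Scd1, the desaturase that makes monounsaturated fatty acids, read 9.79 and 9.98 at 5 mg, against 10.34 and 10.35 at 2 mg (-0.46 ± 0.12, adjusted p 0.563). Against CCl4 alone, Scd1 differed by 0.36 at 5 mg (adjusted p 0.0862) and by 0.82 at 2 mg (adjusted p 0.000295). Acss2, which makes acetyl-CoA from acetate, differed by -0.58 with overlapping arrays. Its value rested on the 5 mg arrays, with -0.0028 without 5 mg replicate 1 and -1.15 without 5 mg replicate 2 (adjusted p 0.0322). Elovl5, a fatty acid elongase, differed by -0.30 (-0.10 without 5 mg replicate 1 and -0.50 without 5 mg replicate 2). Of 33 genes of fatty acid and triglyceride synthesis, among them Plin2 and Plin5 above, 0 were called. The difference was above 0 for 12 and below 0 for 21 (median -0.08), and 8 (24.2%) were non-overlapping with 5 mg higher and 9 (27.3%) with 5 mg lower.

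For subunits of oxidative phosphorylation 4 of 62 (6.45%) were non-overlapping with 5 mg higher and 19 (30.6%) with 5 mg lower. None was called, and the median was only -0.07. Ndufb6, a complex I subunit, had the smallest p of them, with 10.88 and 10.80 at 5 mg, against 11.34 and 11.14 at 2 mg (-0.40 ± 0.12, adjusted p 0.711), while a dim second probe gave 0.08. Of 38 urea cycle and amino acid genes 0 were called, 5 were non-overlapping with 5 mg higher and 11 with 5 mg lower (28.9%), with a median of -0.07. Oat, the ornithine aminotransferase, read 10.34 and 10.28 at 5 mg, against 11.25 and 10.59 at 2 mg (-0.61 ± 0.17, adjusted p 0.653), and Ass1, a urea cycle enzyme, differed by -0.42 ± 0.13 (adjusted p 0.817). The difference of Oat was -0.28 without 2 mg replicate 1, and without 2 mg replicate 2 it passed (-0.94, adjusted p 0.0385).

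The lists of stress response genes held no call and went both ways. Of 40 genes of the unfolded protein and integrated stress responses 20 had a difference above 0 and 20 below, with 12.5% and 10% non-overlapping. Heat shock chaperones divided into 10 and 12 (18.2% and 13.6% non-overlapping). The p53 targets and apoptosis genes divided into 13 and 13, with 23.1% non-overlapping with 5 mg higher and 7.69% with 5 mg lower. Circadian genes had a median of -0.04, with 16.7% and 0% on those sides. Single genes with small p-values follow. Txnip, a thioredoxin-binding protein induced by glucose, read 8.71 and 8.59 at 5 mg, against 7.75 and 8.09 at 2 mg (0.73 ± 0.17, adjusted p 0.341). Gadd45g, a growth arrest gene, read 7.08 and 7.63 at 5 mg, against 6.67 and 6.68 at 2 mg (0.68 ± 0.16, adjusted p 0.425), and its second probe gave 0.39. Its difference was 0.95 without 5 mg replicate 1 and 0.41 without 5 mg replicate 2. Nfil3, a transcription factor tied to the clock, read 8.40 and 8.20 at 5 mg, against 8.07 and 7.34 at 2 mg (0.60 ± 0.18, adjusted p 0.727). Without 2 mg replicate 1 the Nfil3 difference was 0.97, and without 2 mg replicate 2 it was 0.23. The chemokine gene Cxcl1 differed by 0.60 ± 0.15 (adjusted p 0.512). Plxna1, a semaphorin receptor, read 7.16 and 7.46 at 5 mg, against 6.48 and 6.60 at 2 mg, and with an adjusted p of 0.0655 (0.77 ± 0.13) it was one of 5 genes under 0.1. For each of these 5 named genes the doses did not overlap.

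The other genes with the smallest p-values included 3 that the annotation names only by clone or model. Of these 1810055G02Rik differed by 0.78 ± 0.15 (adjusted p 0.126), Gm4952 by 0.62 ± 0.12 (adjusted p 0.143) and 1300017J02Rik by 0.68 ± 0.13 (adjusted p 0.150). The arrays of the doses did not overlap for any of them. At the lower end Rnf135, a ubiquitin ligase, read 7.65 and 7.62 at 5 mg, against 8.04 and 8.15 at 2 mg (-0.46, adjusted p 0.512). Its other probes, above background on 0 arrays, gave 0.11 and 0.05. Ackr1, a decoy receptor for chemokines, was not above background on the 5 mg arrays. It passed the background rule for named genes through the 2 mg arrays only. By the bound used for Fgb its mean was at least 1.35-fold lower at 5 mg, without a call (means 6.31 at 5 mg and 6.83 at 2 mg, adjusted p 0.470).

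Genes that CCl4 itself changed had small median differences between the doses. Against vehicle, 744 genes were higher with CCl4 (6.75%) and 654 lower (5.93%). The means behind this choice came from arrays that do not enter the dose differences. The tests did share arrays, because a single model over all arrays set the spread for both contrasts. Genes higher with CCl4 had a median dose difference of -0.0399. They were non-overlapping with 5 mg higher for 77 (10.3%) and with 5 mg lower for 157 (21.1%). Genes lower with CCl4 had a median of 0.0395, with 135 (20.6%) and 94 (14.4%) on those sides. Acot1 and Cyp4a31, called between doses, are among them. A small shared spread favours a gene in both tests, so this overlap is not an independent result. For the 9624 genes not called with CCl4 the median was -0.0009, with 16.4% and 16.5%. Past 1.5-fold lay 4 genes higher and 4 lower at 5 mg among the 744 higher with CCl4. Among the 654 lower with CCl4 there were 12 and 2, and among the 9624 there were 13 and 5. Against CCl4 alone, the genes higher with CCl4 had medians of -0.49 at 5 mg and -0.46 at 2 mg, and the genes lower with CCl4 had medians of 0.51 at 5 mg and 0.49 at 2 mg. These last medians use the CCl4 arrays that chose the genes and are given as a description.

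**Figure D5:**
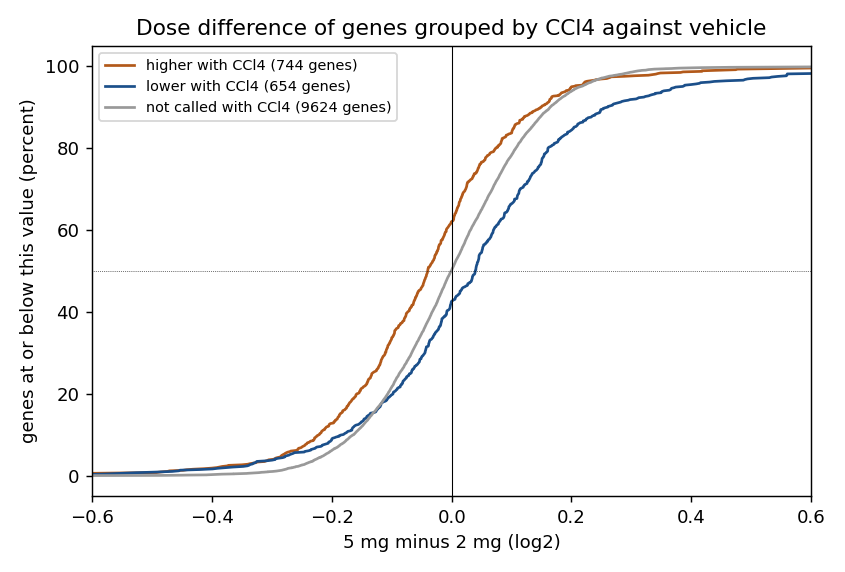
Cumulative percent of genes (y) at or below each 5 mg minus 2 mg difference in log2 (x), for genes higher with CCl4 against vehicle (744), lower (654) and not called (9624). The curve of genes higher with CCl4 lies left of the others at its middle (median -0.0399) and that of genes lower with CCl4 lies right (median 0.0395).

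Egfr, the target of erlotinib, was measured by 4 tested probes that did not give 1 direction. The brightest read 8.11 and 8.13 at 5 mg, against 8.36 and 9.09 at 2 mg (-0.61 ± 0.24, adjusted p 0.996, and -0.24 without 2 mg replicate 2), and the other probes gave 0.30, 0.18 and -0.17. Of 15 tested genes of the EGF receptor family and its ligands 0 were called, and 3 were non-overlapping in each direction, with a median of 0.02. Hbegf, a ligand of the receptor, differed by -0.13 ± 0.12, and Erbb2 and Erbb3 have no probe in the annotation used.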

How the data were processed

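Total RNA from non-tumour liver was read on 8 Illumina mouse BeadArrays. The deposited table holds non-normalized intensities, 1 column per array, and its values carry no detection p-value; the sources used here do not say how the authors summarised beads. A second deposited table holds the authors' processed values, with an unstated normalization.

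From the deposited intensities, limma 3.58.1 in R 4.3.3 corrected background (normexp, offset 50), quantile-normalized and took log2. Of 25697 probes 23978 had 1 gene symbol and 1719 none. A filter removed probes whose mean lay at or under percentile 40, which left 15418. Each of 11022 genes was read by its brightest probe. One model over all 8 arrays gave the contrasts, with 4 residual and 11.87 prior degrees of freedom. The background limit was the 99th percentile of 1324 odorant, vomeronasal and trace amine receptor probes on each array.

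Genes were named from those called, filled to 15 in each direction by the smallest p among genes above background on both arrays of a dose, with up to 3 members of each list and a fixed set of EGF receptor, drug and scar genes. The members and lists were chosen with earlier results of these data known. Further list members named, among them Acot2, Acaa1b, Slc25a20, Masp2, Fga, Elovl5 and Fmo5, were chosen after their values were seen. Gnat1, no glycolysis gene, was removed from that list as an entry error after its values were seen. Alternatives covered normalization, background, filters, variance prior, probe choice, samples in the fit and each array left out. The statistics were tested on simulated data.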

Additional observations from a re-analysis of the deposited data

How the results depend on the processing

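No paired analysis was possible because the replicate numbers follow record order and the columns carry none. The number of genes called, all higher at 5 mg, was 0 with the authors' processed values, without background correction, with median scaling, with probes above background on at least 2 arrays, with the mean of the probes and with only the 4 erlotinib arrays, 5 without a filter, 4 with an intensity trend and robust prior and 2 with array weights. Leaving out 1 array gave 0 to 7 calls, 0 to 4 higher and 0 to 3 lower, with the lone array assumed to vary like the other groups. Acot1 and Cyp4a31 were higher at 5 mg under all 17 alternatives and called under 6 of them each, with adjusted p-values from 0.0234 to 0.9997. Past 1.5-fold there were 14 higher and 3 lower with the authors' values, and 14 and 4 without background correction, with 23 to 61 higher and 11 to 36 lower on leaving out an array. The SD of the dose difference was 0.0987 with the authors' values, 0.104 without background correction, 0.161 with probes above background on at least 2 arrays and 0.142 to 0.191 on leaving out an array. The percent not overlapping was 12.1 higher and 11.7 lower with median scaling, 15.8 and 16.3 with probes above background on at least 2 arrays, and 16.2 to 34.2 and 16.7 to 35.0 on leaving out an array, where 1 array in a dose makes non-overlap easier by construction. The median over genes higher with CCl4 was -0.0712 to -0.015 on leaving out an array, and over genes lower with CCl4 0.0807 with median scaling and 0.00505 to 0.0647 on leaving out an array. Over 86 named genes, 22 values lost and 12 gained a call, and these reversed: Acaa1b to 0.12 with median scaling, Cyp1a2 to -0.0343 and Masp2 to 0.13 with the mean of the probes. On leaving out an array the range crossed 0 for Acaa1b (-0.179 to 0.142), Acot2 (-0.116 to 0.185), Col1a1 (-0.298 to 0.0757), Cyp2e1 (-0.147 to 0.15), Cyp3a11 (-0.219 to 0.00631), Lcn2 (-0.642 to 0.325), Timp1 (-0.244 to 0.0195). The cause of these changes was not tested. Signal over background limits the reading of 5125 genes not above background on any erlotinib array.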
